A study of Mus musculus with 9 samples.

Results

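The BCL2 family was described here through 10 genes chosen by name from the 55367 genes of the count table: Mcl1, Bcl2, Bcl2l1, Bcl2l2, Bak1, Bax, Bid, Bad, Bbc3 and Pmaip1. The rule names them and uses no threshold on their levels, and all 10 were listed once and had at least 5 counts in every tumor. The table holds RNA-Seq counts from 9 osteosarcomas of genetically engineered mice, 4 p53-driven and 5 Myc-knockin. In the p53-driven mice Cre recombinase runs from Col2.3, an osteoblast promoter, and acts on 1 floxed copy of Trp53 (Trp53 fl/+). The Myc-knockin mice carry that same floxed Trp53 allele and, in addition, a Lox-Stop-Lox c-Myc T58A allele that Cre switches on. Both genotypes are therefore Trp53 fl/+ and recombine in cells in which Col2.3 is or was active, and the labels give no age or treatment. The tumors were sequenced whole, so a lower level of a gene can reflect fewer cells of one type or less RNA per cell, and these cannot be told apart.

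Cells commit to mitochondrial apoptosis when the effectors BAX and BAK1 form pores in the outer mitochondrial membrane. The anti-apoptotic proteins BCL2, BCL-XL (from Bcl2l1), MCL1 and BCL-w (from Bcl2l2) hold the effectors in check. The BH3-only proteins BID, BAD, PUMA (from Bbc3) and NOXA (from Pmaip1) relay stress signals by binding either side. Bax, Bbc3 and Pmaip1 are textbook p53 targets, and high MYC is known to sensitize cells to apoptosis, which is why the family is of interest where a Myc allele is added to Trp53 fl/+.

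None of the 10 genes was called different by edgeR between the genotypes, where a gene was called if the groups differed more than 1.5 times and the quasi-likelihood test gave it an adjusted p under 0.05. Of all 15365 tested genes, 5.27% were called, 2.26% as higher and 3% as lower in the Myc-knockin tumors. At an unadjusted p under 0.05, 3 of the 10 genes passed (Bax, Bbc3 and Bcl2l2), beside 26.8% of all tested genes. The log2 fold changes of the 10 genes, Myc-knockin over p53-driven, ran from -1.09 for Pmaip1 to 1.88 for Bbc3 with a median of -0.20, whereas the median of all tested genes was 0.14. They were above 0 for 5 of the 10 genes, beside 56.2% of all tested genes. With DESeq2 in place of edgeR, 1 of the 10 genes was called (Bbc3), beside 14.9% of all tested genes.

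The libraries differed in ways that touch these values. M624 and M664 stood apart from the other 7: they held 3.47 to 6.35 CPM (counts scaled to library size) of Rn7sk, an abundant small nuclear RNA, against 6545 to 10667 CPM elsewhere, and 5441 to 17677 globin counts against 0 to 1. F187, M351, M408 and M9 had 23.2% to 81.0% of their reads on satellite repeats, against at most 0.0242% in the others, and more reads on chemosensory receptor genes, a measure of genomic background (0.150 to 1.23 reads per kb of exon against at most 0.0388). Total counts ran from 2716322 to 17073285, and 3 counts, taken as the floor of detection, corresponded to 0.114 to 2.39 CPM. Values were therefore also computed over the 7 tumors left without M624 and M664. Myc, the targeted gene, was higher in every Myc-knockin tumor (144 to 1045 CPM) than in any p53-driven tumor (43.5 to 67.1 CPM; log2 fold change 3.41, adjusted p = 0.0217 by edgeR). Trp53 itself, whose floxed copy both genotypes carry, spanned 8.29 to 13.5 CPM in the p53-driven and 3.19 to 37.7 CPM in the Myc-knockin tumors (adjusted p = 0.569 by edgeR). The low end rests on few reads: M9 had 4 counts of Trp53 where 5 were expected from genomic background, and M351 had 8 where 4.5 were expected. The high end was M408, and the next value was 17.4 CPM in M664.

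All levels are CPM after TMM normalization, which scales libraries to a shared composition, and values per tumor are given in the order F187, F325, F331 and F368 for the p53-driven group, and M351, M408, M9, M624 and M664 for the Myc-knockin group.

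**Figure D1:**
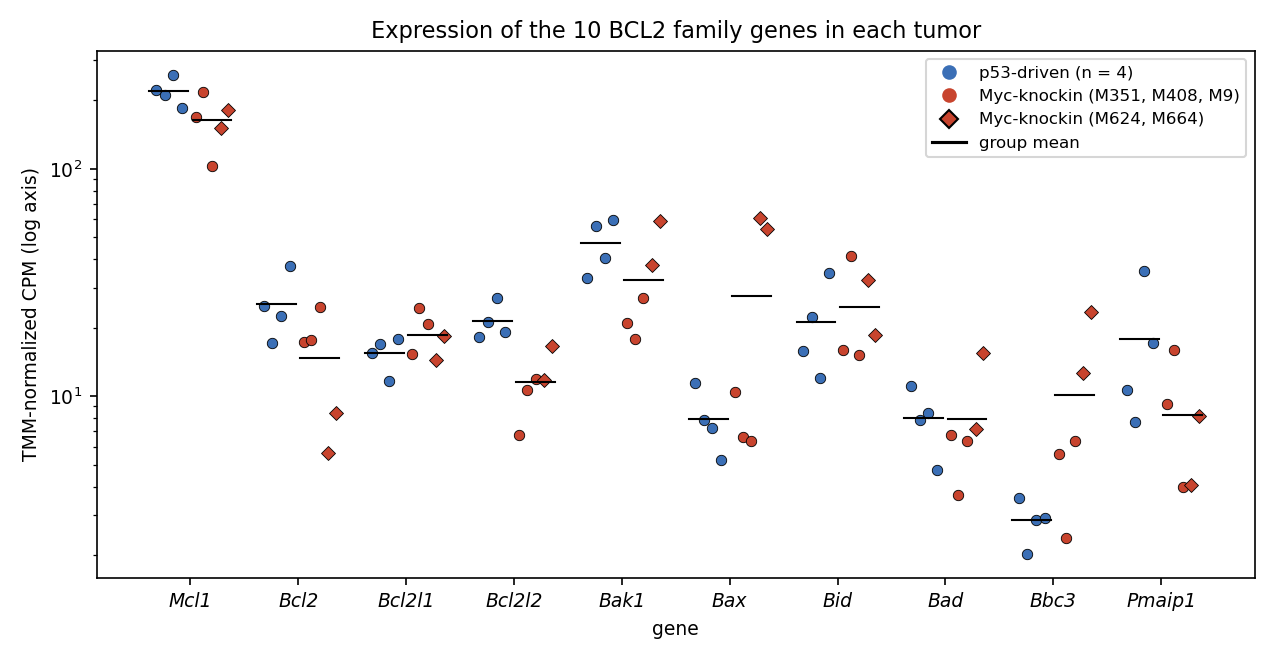
TMM-normalized CPM (log axis) of each of the 10 genes, with 1 point per tumor, p53-driven in blue (n = 4) and Myc-knockin in red (n = 5), M624 and M664 as diamonds, and group means as bars. For Bax and Bbc3 the diamonds lie above all 7 other tumors, for Bcl2 they lie below them, and for Bcl2l2 the 4 p53-driven tumors (18.2 CPM or more) lie above the 5 Myc-knockin tumors (16.7 CPM or less).

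The promoter sequences of the 10 genes were searched for the E-box CACGTG, which MYC binds with its partner MAX and which reads the same on both strands. In RefSeq promoter windows of GRCm38.p6, from 250 bases before to 50 bases after each start site, 2 of the 9 genes with a window held this motif, Bax and Bbc3. In all, 2 of the 14 windows of the 10 genes held it, and so did 7.15% of all 32851 windows. Counted by gene, 8.09% of the 27025 genes with a window held it. Pmaip1 was not among the genes with a window. The motif is in capitals in the stretches below, which are shown because they hold the only matches in the windows of the 10 genes. The Bax stretch is chr7:45466891-45466918 on the minus strand, with the motif 9 bases before the start site, and the Bbc3 stretch is chr7:16310356-16310383 on the plus strand, with the motif 64 bases before 1 of the gene's 3 start sites in RefSeq; the windows of the other 2 did not hold it.
Bax: gcgatgatgatCACGTGactagtcctgc
Bbc3: cggggcgggcgCACGTGgcggcgtcgag
A match of these letters is a description of the sequence and says nothing about binding in these tumors.

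Among the effectors, Bax was high in M624 and M664 and low in the other 7 tumors of both genotypes. Bax (chr7:45461697-45466898 on the minus strand, GRCm38) encodes the effector that moves from the cytosol to mitochondria. It stood at 11.5, 7.86, 7.27 and 5.23 CPM in the p53-driven tumors. In the Myc-knockin tumors it stood at 10.5, 6.59 and 6.37 CPM in M351, M408 and M9, and at 60.5 and 54.5 CPM in M624 and M664. The first 3 Myc-knockin tumors lay inside the p53-driven range, and the last 2 were above all 7 others. Across all 9 tumors the means were 7.95 ± 2.59 CPM (SD, n = 4) and 27.7 ± 27.3 CPM (SD, n = 5), a log2 fold change of 1.86 (SE 0.72, 95% interval 0.28 to 3.43, adjusted p = 0.129 by edgeR). Over the 7 other tumors it was 0.04 (log2 scale, SE 0.39, adjusted p = 0.962 by edgeR). The pair decides the value, and the 7 remaining tumors leave a difference anywhere between -0.84 and 0.92 on the log2 scale.

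Bak1 (chr17:27019810-27029009, minus strand), the effector that sits in the mitochondrial membrane, had its 3 lowest levels in M351, M408 and M9. It stood at 33.2, 56.0, 40.4 and 59.6 CPM in the p53-driven tumors, and at 20.9, 17.8 and 27.1 CPM in M351, M408 and M9. In M624 and M664 it stood at 37.7 and 58.8 CPM, inside the p53-driven range. Over all 9 tumors the groups overlapped, with a log2 fold change of -0.53 (SE 0.37, adjusted p = 0.386 by edgeR). Over the 7 tumors without the pair the groups did not overlap, as held for 23.4% of the 14308 genes tested there, and the log2 fold change was -1.07 (SE 0.29, unadjusted p = 0.0046, adjusted p = 0.0649 by edgeR). That adjusted p misses the threshold, and with 3 tumors against 4 the exact permutation test gave p = 0.0571, the smallest it allows. Any gene whose groups do not overlap gets that smallest value, so it adds nothing to the separation. On Bak1, 25.5% of the exon bases lie opposite exons of Ggnbp1, and on Bax 12.2% are shared with Gm45808 on the same strand. Strand cannot assign the reads in the Bax stretch to one gene. For the Bak1 stretch the strand setting of the counting is not stated, so those reads cannot be assigned either.

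Among the anti-apoptotic genes, Bcl2l2 was the only one of the 10 genes whose groups did not overlap over all 9 tumors, as held for 13% of all tested genes. It encodes BCL-w and lies at chr14:54883377-54888234 on the plus strand. Its levels were 18.2, 21.2, 26.9 and 19.2 CPM in the p53-driven tumors. In the Myc-knockin tumors they were 6.77, 10.6, 11.95, 11.7 and 16.7 CPM. The lowest p53-driven tumor was F187, and the highest Myc-knockin tumor was M664, close below it. The means were 21.4 ± 3.90 CPM (SD, n = 4) and 11.5 ± 3.54 CPM (SD, n = 5), and the two-sided exact permutation test on mean log2 CPM gave p = 0.0159, the smallest that 126 arrangements allow. Groups that do not overlap always give that value, so it restates the separation and adds nothing to it. In the fit across all genes the log2 fold change was -0.87 (SE 0.31, 95% interval -1.54 to -0.20) and the adjusted p was 0.103 by edgeR. Unlike that of Bax, the value did not rest on M624 and M664: without them it was -1.07 (SE 0.29, adjusted p = 0.0667 by edgeR). In the shallowest libraries few reads stand behind it: M351 had 11 counts where 5.0 were expected from genomic background, and M9 had 15 where 5.5 were expected. On Bcl2l2, 13.3% of the exon bases are shared with Gm20521 on the same strand.

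Mcl1 (chr3:95658788-95663176, plus strand), which encodes a short-lived protein and is transcribed at a high rate, was the most abundant of the 10 transcripts. It stood at 222, 211, 259 and 185 CPM in the p53-driven tumors and at 169, 217, 103, 151 and 181 CPM in the Myc-knockin tumors. Only M408 among the latter reached the p53-driven range. The means were 219 ± 31.0 CPM (SD, n = 4) and 164 ± 42.0 CPM (SD, n = 5), with a log2 fold change of -0.41 (SE 0.28, 95% interval -1.03 to 0.20, adjusted p = 0.369 by edgeR). The value changed little without the pair (-0.36).

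Bcl2 (chr1:106538178-106714274, minus strand), the founding member of the family, was lowest in the same 2 libraries in which Bax was highest. It stood at 24.9, 17.2, 22.6 and 37.2 CPM in the p53-driven tumors. It stood at 17.2, 17.6 and 24.7 CPM in M351, M408 and M9, and at 5.64 and 8.42 CPM in M624 and M664. The first 3 lay within the p53-driven range, and the pair lay below all 7 other tumors. The log2 fold change was -0.84 (SE 0.44, 95% interval -1.79 to 0.12, adjusted p = 0.243 by edgeR) over 9 tumors and -0.31 (SE 0.31, adjusted p = 0.536 by edgeR) over 7. Bcl2 has 9.16 kb of exon, and background reads were expected to make 11.3 of its 31 counts in M9 and 10.2 of its 28 in M351.

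Bcl2l1 (chr2:152780668-152831728, minus strand), whose main product BCL-XL guards the outer membrane, was the anti-apoptotic gene with a positive log2 fold change, 0.27 (SE 0.28, 95% interval -0.34 to 0.89, adjusted p = 0.568 by edgeR). It spanned 11.7 to 17.7 CPM in the p53-driven and 14.4 to 24.4 CPM in the Myc-knockin tumors, so the groups overlapped. The table sums all transcripts of a gene, so the long and the short products of Bcl2l1, which act in opposite ways, are not separated here.

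Of the BH3-only genes, Bbc3 had the largest fold change of the 10 genes. Bbc3 (chr7:16308393-16318205, plus strand) encodes PUMA, which binds all the main anti-apoptotic proteins. It stood at 3.55, 2.02, 2.85 and 2.92 CPM in the p53-driven tumors. In the Myc-knockin tumors it stood at 5.54, 2.38, 6.37, 12.7 and 23.4 CPM. M351 and M9 lay above the p53-driven range as well as the pair, and M408 lay inside it. The means were 2.84 ± 0.63 CPM (SD, n = 4) and 10.1 ± 8.35 CPM (SD, n = 5), and the log2 fold change was 1.88 (SE 0.63, 95% interval 0.50 to 3.26, adjusted p = 0.0910 by edgeR). DESeq2 gave 1.90 with an adjusted p of 0.0381. Without M408, edgeR gave 2.18 with an adjusted p of 0.0480, in a fit that called 5.47% of its genes, and without M624 and M664 it gave 0.76 (SE 0.56) with an adjusted p of 0.408. The counts outside the pair were small, 8 to 33 per tumor, and in M351 and M9, where 9 and 8 were counted, 2.4 and 2.6 were expected from background.

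Pmaip1 (chr18:66458533-66465565, plus strand), which encodes the MCL1-binding NOXA, had the largest negative fold change of the 10 genes. It stood at 10.7, 7.70, 35.5 and 17.14 CPM in the p53-driven tumors and at 9.23, 15.9, 3.98, 4.08 and 8.20 CPM in the Myc-knockin tumors. F331 was the highest of all 9, and the groups overlapped. The log2 fold change was -1.09 (SE 0.54, 95% interval -2.27 to 0.09, adjusted p = 0.220 by edgeR) over 9 tumors and -0.72 (SE 0.60) over 7. Leaving out F331 alone brought it to -0.51. The lowest value rests on few reads: M9 had 5 counts where 3.4 were expected from background. The next lowest does not: M624 had 107 counts where 0.1 were expected. M351 had 15 counts where 3.0 were expected.

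Bid and Bad differed least. Bid (chr6:120891930-120916853, minus strand), which is cleaved by caspase-8 to link death receptors to mitochondria, spanned 12.02 to 34.8 CPM in the p53-driven and 15.1 to 41.4 CPM in the Myc-knockin tumors, with a log2 fold change of 0.23 (SE 0.41, 95% interval -0.67 to 1.14, adjusted p = 0.755 by edgeR). Bad (chr19:6941861-6951899, plus strand), whose protein is silenced by growth factor signaling, spanned 4.74 to 11.1 CPM and 3.66 to 15.5 CPM, with a log2 fold change of 0.01 (SE 0.46, 95% interval -1.001 to 1.03, adjusted p = 0.990 by edgeR). The intervals leave room for differences of about a log2 unit in either direction for Bad. The sign for Bad turned without the pair (-0.50), under limma-voom and after background subtraction. Exons of Bid share 628 bases with those of Bcl2l13 on the opposite strand, and 20.5% of the exon bases of Bad lie opposite Gpr137. In M9 Bad had 8 counts where 3.1 were expected from background.

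**Figure D2:**
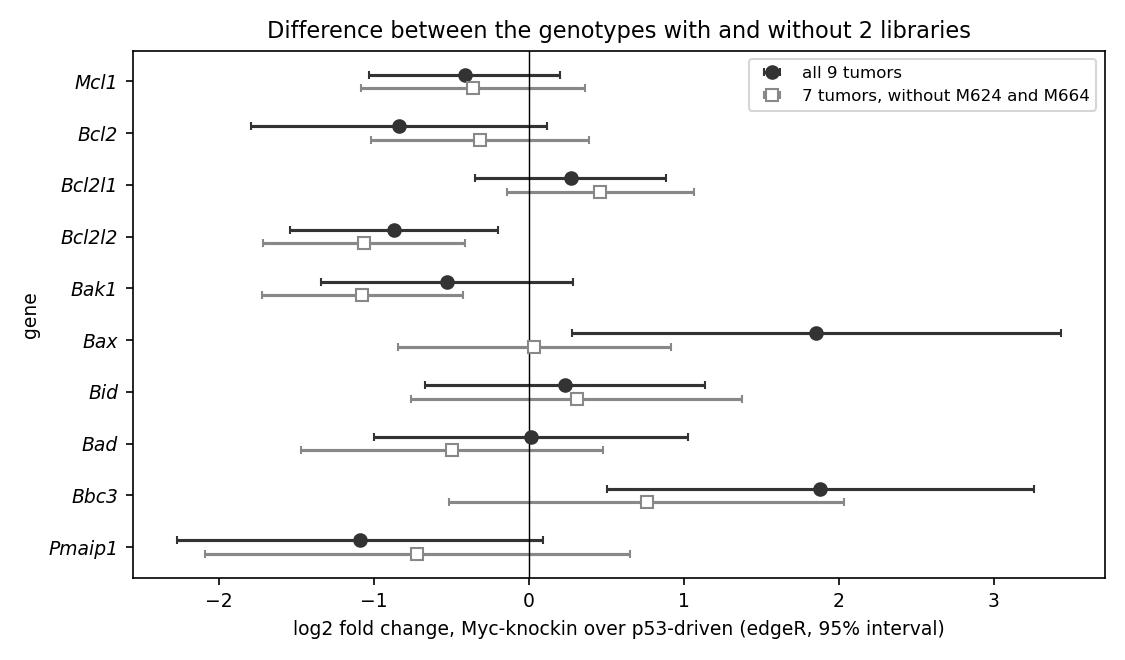
Log2 fold change of each of the 10 genes, Myc-knockin over p53-driven, from edgeR with 95% intervals, over all 9 tumors (filled circles) and over the 7 tumors without M624 and M664 (open squares). For Bax the estimate goes from 1.86 to 0.04 and for Bak1 from -0.53 to -1.07, whereas Bcl2l2 stays below 0 with both intervals.

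With M624 and M664 set aside, 2 of the 10 genes had an unadjusted p under 0.05 (Bak1 and Bcl2l2), beside 25.7% of all genes tested in that fit, and none was called, beside 4.61%. The median log2 fold change of the 10 genes was then -0.34 and that of all tested genes was 0.08. With the 4 satellite-rich libraries set aside instead, the Myc-knockin group consists of M624 and M664 only, so that the genotype and the features of that pair cannot be told apart. In that fit Bax (3.10, adjusted p = 0.00483 by edgeR), Bbc3 (2.82, adjusted p = 0.0108) and Bcl2 (-1.84, adjusted p = 0.0314) were called, beside 27.9% of all genes tested.

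The 2 libraries differed from the other 3 Myc-knockin tumors in a way that followed base composition. When the tested genes were divided into 5 bins of equal size by the GC content of their longest transcript, the median log2 ratio of M624 and M664 over M351, M408 and M9 was -0.61, -0.31, -0.0045, 0.36 and 0.76 from the lowest to the highest bin. Bax, with 63.5% GC, and Bbc3, with 65.2% GC, belong to the highest bin. Their ratios were 2.80 and 1.82 on the log2 scale, at percentiles 99.3 and 95.9 of all tested genes, above the median of their bin. In the same bin, Bak1 (1.12) and Bad (0.96) also lay above the median, and Bcl2l1 (-0.29) lay below it. Bcl2, with 46.3% GC, is in the next to lowest bin, and its ratio of -1.43 was below that bin's median. Of the 10 genes, 2 were higher in both libraries than in every other tumor (Bax and Bbc3), beside 17.4% of all tested genes, and 1 was lower in both (Bcl2), beside 14.1%. The part of base composition in these values was not tested.

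**Figure D3:**
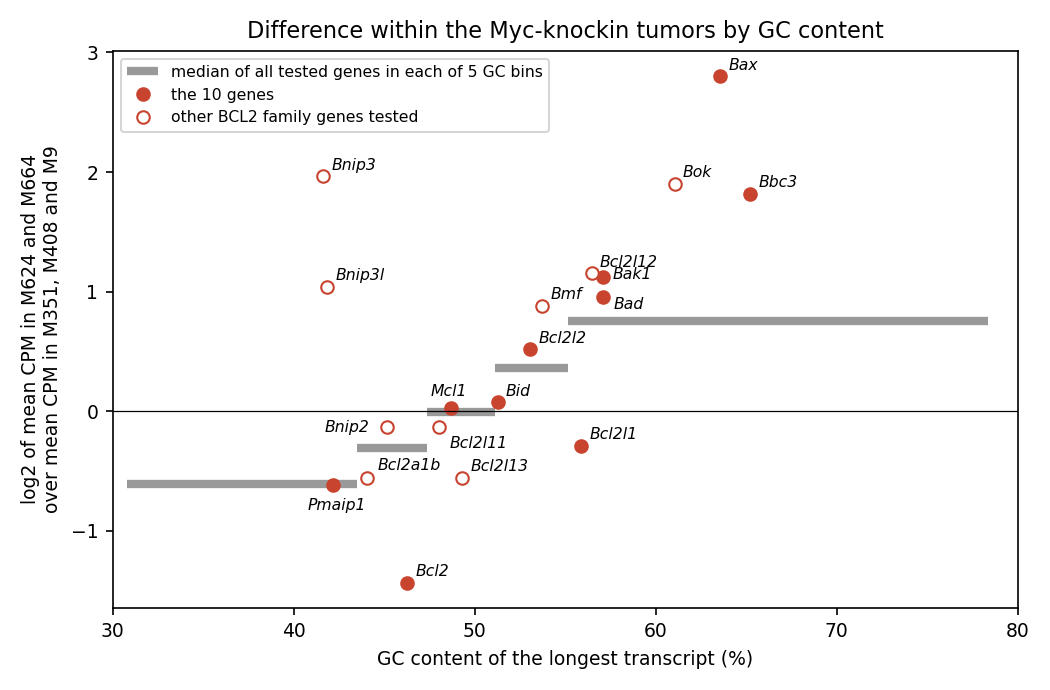
GC content of the longest transcript (%) against the log2 ratio of mean CPM in M624 and M664 over mean CPM in M351, M408 and M9, with 0.5 CPM added to both, for the 10 genes (filled), the 9 other tested BCL2 family genes (open) and the median of all tested genes in each of 5 bins of GC content (gray bars). The medians rise from -0.61 to 0.76, and Bax, Bbc3, Bok and Bnip3 lie above the bar of their bin.

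Ratios between genes within a tumor do not depend on the scaling between libraries. Per kb of exon, Mcl1 ranked first of the 10 genes in all 9 tumors, with 64.1 ± 9.08 CPM per kb (SD, n = 4) in the p53-driven and 48.0 ± 12.3 CPM per kb (SD, n = 5) in the Myc-knockin tumors. Bak1 ranked 2 or 3 in every tumor. Mcl1 made up 81.5% to 87.3% of the summed anti-apoptotic reads per kb in the p53-driven and 75.2% to 88.0% in the Myc-knockin tumors, so the groups overlapped. By group means, the order below Mcl1 was Bak1, Pmaip1, Bid, Bax, Bcl2l2, Bcl2l1, Bad, Bcl2 and Bbc3 in the p53-driven tumors, where the means from Pmaip1 to Bcl2 lay between 6.50 and 2.78 CPM per kb. Of the neighbors from Pmaip1 to Bcl2, only Bcl2l2 and Bcl2l1 (4.79 ± 0.87 and 3.37 ± 0.59 CPM per kb, SD, n = 4) differed by more than the larger of their SDs. Outside that stretch, so did Bak1 and Pmaip1 (19.6 ± 5.22 and 6.50 ± 4.57) and Bcl2 and Bbc3 (2.78 ± 0.92 and 1.34 ± 0.30). In the Myc-knockin tumors the order was Bax, Bak1, Bid, Bbc3, Bcl2l1, Bad, Pmaip1, Bcl2l2 and Bcl2. Below Mcl1, only Bcl2l2 and Bcl2 (2.59 ± 0.79 and 1.61 ± 0.84 CPM per kb, SD, n = 5) differed there by more than the larger of their SDs. Bax took its place at the top there through M624 and M664, in which it ranked 2.

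The ratio of Bax to Bcl2, an often used index of readiness for apoptosis, was 2.67, 2.66, 1.87 and 0.816 in the p53-driven tumors. It was 3.53, 2.18 and 1.499 in M351, M408 and M9, and 62.3 and 37.6 in M624 and M664. The 3 former overlapped the p53-driven range, and the high values were those of the pair. As Bax and Bcl2 differ in GC content, the limit given above for base composition holds for this ratio too. Bax made up 11.8% to 34.5% of the effector reads per kb in the p53-driven tumors, 26.4% to 43.3% in M351, M408 and M9, and 58.6% and 71.0% in M664 and M624.

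The ratio of Bcl2l2 to Bcl2l1 separated the genotypes without resting on the pair. It was 1.21, 1.28, 2.37 and 1.11 in the p53-driven tumors and 0.452, 0.448, 0.593, 0.840 and 0.929 in the Myc-knockin tumors. Reads per kb were thus higher for Bcl2l2 than for Bcl2l1 in every p53-driven tumor and lower in every Myc-knockin tumor. Few reads stand behind it in M351 (11 and 25 counts of Bcl2l2 and Bcl2l1) and M9 (15 and 26 counts). The difference of mean log2 ratios, Myc-knockin minus p53-driven, was -1.19, and -1.53 without M624 and M664 and -0.76 without the 4 satellite-rich libraries. The ratio of Mcl1 to Bcl2l1 ran from 14.0 to 29.8 in the p53-driven and from 6.66 to 14.8 in the Myc-knockin tumors, so the groups overlapped at their edges. No test was made of these ratios, which were chosen from the same values. Among the ratios computed, Bcl2l2 to Bcl2l1 was the only ratio whose groups did not overlap. Bcl2l2 by itself did not overlap either, as held for 13% of all tested genes, so the ratio partly repeats that separation. How many ratios of other gene pairs separate the genotypes was not computed.

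**Figure D4:**
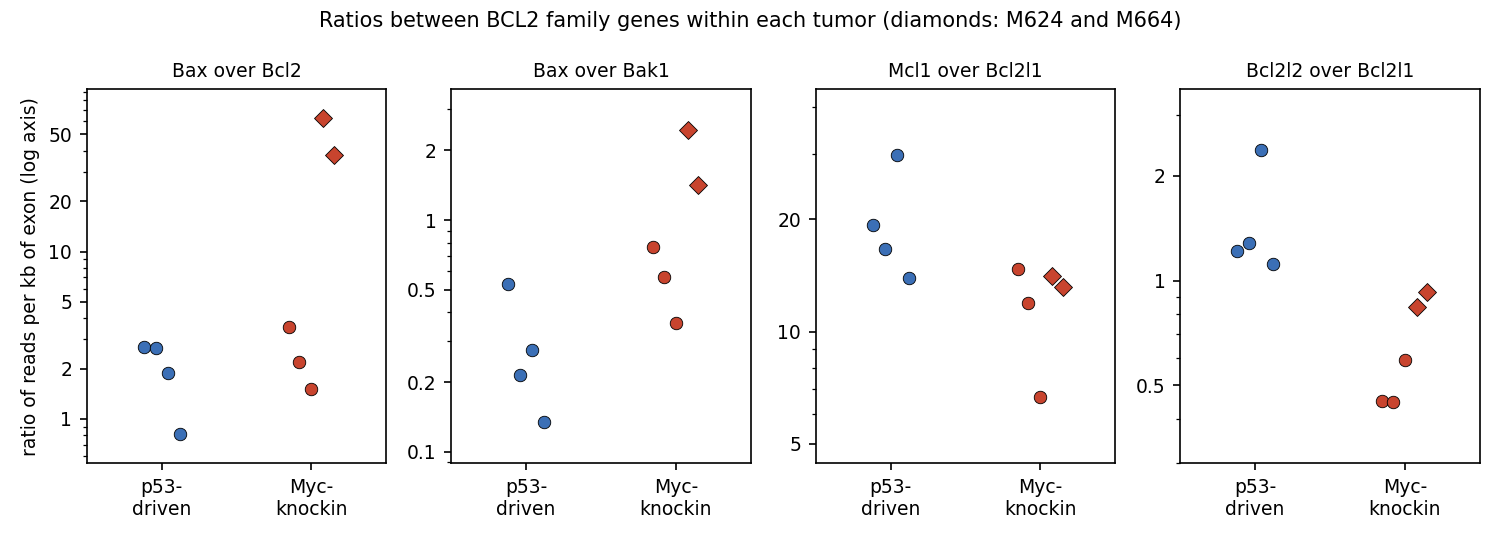
Ratios of reads per kb of exon within each tumor (log axes) for 4 pairs of genes, p53-driven (blue, n = 4) and Myc-knockin (red, n = 5), M624 and M664 as diamonds. Bax over Bcl2 is 37.6 and 62.3 in the pair and at most 3.53 elsewhere, and Bcl2l2 over Bcl2l1 is above 1 in the 4 p53-driven tumors and below 1 in the 5 Myc-knockin tumors.

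Of 18 other listed genes of the BCL2 family, 9 passed edgeR's filter on low counts and none was called by edgeR. An unadjusted p under 0.05 by edgeR was reached by 4 of the 9, beside 26.8% of all tested genes. DESeq2 called 1 of the 9, Bnip3 (log2 fold change 2.01, adjusted p = 0.0174), beside 14.9% of all genes that edgeR tested. Bnip3, a hypoxia-responsive gene of mitophagy, stood at 5.13 to 11.9 CPM in the p53-driven tumors, at 19.1, 18.3 and 5.58 CPM in M351, M408 and M9, and at 65.4 and 49.2 CPM in M624 and M664 (log2 fold change 2.01, SE 0.60, adjusted p = 0.0708 by edgeR). The levels of Bok, a relative of the effectors, were 11.6 to 21.9 CPM in the p53-driven tumors, 10.8 to 21.5 CPM in M351, M408 and M9, and 47.9 and 87.2 CPM in the pair (1.25, adjusted p = 0.170 by edgeR). Both genes were highest in M624 and M664, and over the 7 other tumors their log2 fold changes were 0.93 and 0.16. Bok has 61.0% GC and Bnip3 41.6%, in the highest and the lowest bin of GC content. The log2 ratio of M624 and M664 over the other 3 Myc-knockin tumors was 1.90 for Bok and 1.96 for Bnip3. These lay at percentiles 96.4 and 96.8 of all tested genes, and the medians of the 2 bins were 0.76 and -0.61. The part of base composition in these values was not tested. The remaining log2 fold changes were 1.51 for Bcl2l12 (adjusted p = 0.129 by edgeR), -1.87 for Bcl2a1b (adjusted p = 0.164), -0.66 for Bnip2, 0.24 for Bmf, 0.23 for Bcl2l13, 0.08 for Bnip3l and 0.07 for Bcl2l11, which encodes the BH3-only protein BIM. Bcl2a1b has near-identical copies (Bcl2a1a and Bcl2a1d), so its counts are uncertain. Bcl2a1a, Bcl2a1c, Bcl2a1d, Bcl2l10, Bcl2l14, Bcl2l15, Bik, Bnipl and Hrk did not pass edgeR's filter. DESeq2, run without that filter, called Hrk, a BH3-only gene (adjusted p = 0.0143). Hrk had 3, 1, 0 and 0 counts in the p53-driven tumors, and 16, 6, 18, 51 and 6 counts in the Myc-knockin tumors, where 6.3 of the 16 in M351 and 7 of the 18 in M9 were expected from background.

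Around the family, 102 genes in 8 lists, including those other family genes, were read as well, and edgeR called 4 of the 88 tested, 2 in each direction, beside 5.27% of all genes. DESeq2 called 11 of the 102, the same 4 and Hrk, which edgeR did not test, among them. The 102 include genes that did not pass edgeR's filter. Over all genes, DESeq2 called 4.98% of the 47719 it tested, and 14.9% of those that edgeR tested. Its calls in the lists are named with each list. Birc5 rose and Birc6 fell among 7 tested caspase inhibitors, of which DESeq2 also called Xiap as lower (adjusted p = 0.0120). Birc5, which encodes survivin and is expressed in dividing cells, stood at 7.96 to 20.1 CPM in the p53-driven and 24.6 to 74.1 CPM in the Myc-knockin tumors (log2 fold change 1.66, adjusted p = 0.0487 by edgeR). Birc6, which encodes a very large ubiquitin ligase that degrades caspases, stood at 535 to 826 CPM and 106 to 320 CPM (-1.43, adjusted p = 0.0487 by edgeR). In both genes every Myc-knockin tumor lay on one side of every p53-driven tumor, as held for 13% of all tested genes. All 6 cycling markers had a positive log2 fold change (median 1.12), beside 56.2% of all tested genes. An unadjusted p under 0.05 by edgeR was reached by 4 of them, beside 26.8%. Of the 6 markers, edgeR called 1 (Ccnb1), beside 5.27%, and DESeq2 called 3, beside 14.9% of all genes that edgeR tested. Their summed level overlapped between the genotypes (368.4 to 632 CPM and 467 to 1068 CPM), and their part in the Birc5 value was not tested.

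Tnfrsf10b, the mouse TRAIL receptor, rose, the only call of edgeR among 11 tested death receptor genes. It stood at 4.58 to 8.87 CPM in the p53-driven and 11.1 to 31.4 CPM in the Myc-knockin tumors (log2 fold change 1.48, adjusted p = 0.0453 by edgeR). Casp8, the initiator caspase downstream of it, stood at 36.8 to 58.3 CPM and 6.59 to 26.3 CPM. The groups did not overlap, as held for 13% of all tested genes. Casp8 missed edgeR's threshold (-1.48, adjusted p = 0.0523) and was called by DESeq2 (-1.51, adjusted p = 0.00802). Foxo3, a transcription factor that can induce Bbc3 and Bcl2l11, fell, the only call of edgeR among 15 tested genes of p53 control. It stood at 83.7 to 122 CPM and 41.7 to 68.3 CPM (-1.03, adjusted p = 0.0424 by edgeR). Ppp1r13l, which encodes the p53 inhibitor iASPP, and Cdkn2a, which encodes the MDM2 inhibitor ARF and a CDK inhibitor, had the largest fold changes of that list (1.64 and 1.56, adjusted p = 0.0849 and 0.157 by edgeR), and over 7 tumors these were 0.80 and 0.48. DESeq2 called Ppp1r13l (1.67, adjusted p = 0.0375) and not Cdkn2a. The 4 calls of edgeR are close to the threshold: without M624 and M664 their adjusted p ran from 0.0593 to 0.0973 with the same signs, and with any one p53-driven tumor or M624 left out, edgeR called none of the pathway genes.

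The other 4 lists held no call of edgeR over 9 tumors, and DESeq2 called Septin4 and Ppif in them. Of 15 tested apoptosome and caspase genes, 8 had a positive and 7 a negative log2 fold change, with the largest sizes for Endog, a mitochondrial nuclease (1.89, adjusted p = 0.226 by edgeR), and Septin4, whose short product ARTS binds XIAP (-1.10, adjusted p = 0.0897, and 0.0415 by DESeq2). Endog stood at 18.7 and 19.0 CPM in M624 and M664 and at most at 3.55 CPM in the other 7 tumors, and its sign turned without the pair (-0.83). Of 12 tested genes of mitochondrial docking and release, 5 had a positive log2 fold change, with the largest for Ppif, the cyclophilin of the permeability transition (1.57, adjusted p = 0.0730 by edgeR and 0.0267 by DESeq2), and then Vdac3, an outer membrane channel (0.62, adjusted p = 0.135). Of 6 tested genes of MCL1 and BH3-only turnover, 4 had a negative log2 fold change, among them Rnf144b (-1.18, adjusted p = 0.238) and the MCL1 deubiquitinase Usp9x (-1.11, adjusted p = 0.148). Of 14 tested co-factors, 9 had a positive log2 fold change, among them the checkpoint gene Rad9a (1.66, adjusted p = 0.136) and the co-chaperone Bag4 (1.12, adjusted p = 0.0800). Without M624 and M664 edgeR called Bag4 (1.16, adjusted p = 0.0417), the only pathway gene called in that fit. Cdkn1a, the cell cycle inhibitor that serves as a readout of p53 activity, had a log2 fold change of -0.82 (adjusted p = 0.185 by edgeR).

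**Figure D5:**
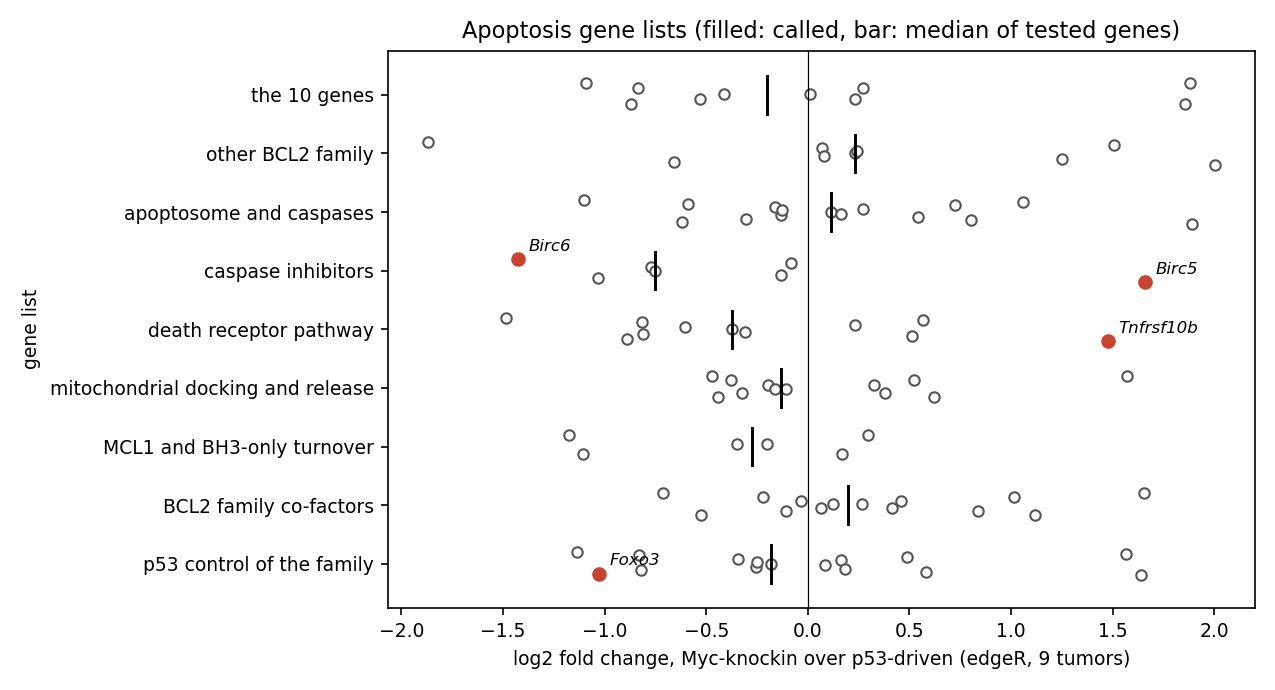
Log2 fold change of each tested gene, Myc-knockin over p53-driven, from edgeR over 9 tumors, in 9 lists of apoptosis genes, with genes called by edgeR filled and named and the median of each list as a bar. The genes called by edgeR are Birc5 and Tnfrsf10b above 0 and Birc6 and Foxo3 below 0, and none of the 10 genes in the top row is filled.

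Marker genes of other cells moved with the genotypes beside all of these values. The 14 osteoblast markers summed to 66326 to 141983 CPM in the p53-driven tumors and to 3699 to 42246 CPM in the Myc-knockin tumors, and the osteocalcin genes Bglap and Bglap2 were at 0 in M408, as was Bglap2 in M624. The 8 osteoclast markers summed to 2716 to 14151 CPM and 124 to 2570 CPM, and the 10 macrophage markers to 818 to 1418 CPM and 279 to 672 CPM. All 3 sums were lower in every Myc-knockin tumor than in any p53-driven tumor. Of all tested genes taken singly, 13% did not overlap. By edgeR, 13 of the 14 osteoblast, all 8 osteoclast and 8 of the 10 macrophage markers had a negative log2 fold change. The other osteoblast marker and 2 macrophage markers had a positive one, beside 56.2% of all tested genes. Called as lower were 2 osteoblast, 6 osteoclast and 3 macrophage markers, beside 3% of all tested genes. The 7 endothelial markers overlapped (346 to 487 CPM and 106 to 512 CPM), as did the 7 skeletal muscle markers (13.03 to 4003 CPM and 2.71 to 1725 CPM), the 5 adipocyte markers (74.5 to 401 CPM and 9.33 to 147 CPM), the 8 neutrophil markers (5.44 to 17.8 CPM and 5.14 to 125 CPM), the 8 T and NK cell markers (5.84 to 25.6 CPM and 2.82 to 39.0 CPM) and the 6 B and plasma cell markers (1.56 to 8.04 CPM and 3.20 to 15.9 CPM). The 6 red cell markers, 4 of them globins, summed to 3.55 to 31.7 CPM in 7 tumors and to 216 and 783 CPM in M624 and M664. The part of cell composition in the levels of the BCL2 family was not tested.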

How the data were processed

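The authors trimmed paired reads with Trim Galore, aligned them to mm10 with STAR, assigned reads to genes with featureCounts, and deposited the raw counts unscaled. Libraries came from a stranded kit after oligo-dT enrichment, and the strand setting of the counting is not given in the sources used here. The labels do not name the columns of the table, so columns were assigned to a genotype, never to a numbered sample: the study's supporting data give the genotype for all p53-driven columns and for M408 and M624, while M351, M664 and M9 were placed by their letter M.

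Counts were tested in R 4.3.3 with edgeR 4.0.16 (TMM, filterByExpr with a minimum count of 10, glmQLFit and glmQLFTest, Benjamini-Hochberg over 15365 genes). A gene was called if it differed more than 1.5 times at an adjusted p under 0.05. DESeq2 1.42.0, limma 3.58.1 (voom), other scalings and filters, a background subtraction and leaving out libraries were alternatives. The steps were tested on simulated data. For single genes, log2 CPM (2 counts added as a prior) was compared by two-sided exact permutation over 126 arrangements. The p-values measure the spread between tumors, and intervals and floors cover counting error or that spread only. Exon lengths, positions and GC content came from the GENCODE annotation and genome of GRCm38, which held 55111 of 55367 gene identifiers. Background was estimated from 1503 chemosensory receptor genes per kb of exon, and satellite reads from 12 genes.

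The 10 genes and all lists were chosen with earlier results of these data known. Named are the 10 genes, the other tested family genes, in each other list the called genes or, with fewer than 2 calls, the 2 that differed most on the log2 scale, and Myc, Trp53 and Cdkn1a.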

Additional observations from a re-analysis of the deposited data

Results flagged for a closer look

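Of 82 groups of 4 or 5 tumors tested for a single value far from the rest by Dixon's gap over range, 5 passed the 95% critical value, where chance gives about 1 in 20. Bcl2l13, a mitophagy receptor, stood at 155 CPM in M408 where the 4 other Myc-knockin tumors had 46.2 to 58.8 CPM. Bnip3l, which encodes the mitophagy receptor NIX, stood at 25.7 CPM in F187 against 59.9 to 62.4 CPM in the other p53-driven tumors. Birc5 stood at 74.1 CPM in M624 where the 4 others of its group had 24.6 to 37.6 CPM. Birc6 stood at 826 CPM in F368 against 535 to 576 CPM in the other p53-driven tumors. The ratio of Bcl2l2 to Bcl2l1 reads per kb was 2.37 in F331 against 1.11 to 1.28 in the other p53-driven tumors.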

How the results depend on the processing

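The count of called genes among the 10 was 0 except with DESeq2 (1, Bbc3), without F187, M351, M408 and M9 (3) and without M408 (1), a range of 0 to 1 over the 9 fits that leave out 1 tumor. For the 10 genes singly, 176 of 186 alternative values kept the sign and the side of the threshold, 5 passed it and 5, all of Bad, turned the sign. All genes called numbered 809, and 136 with library size alone, 494 with every gene that had at least 1 count, 1316 with at least 10 counts in every tumor, 2377 with DESeq2, 1663 with limma-voom, 4595 without the 4 satellite-rich libraries and 5 (without F368) to 1588 (without M9) with 1 tumor left out. Pathway genes called numbered 4, and 2 with upper-quartile scaling, 0 with library size alone, 0 with every gene that had at least 1 count, 7 with at least 10 counts in every tumor, 11 with DESeq2, 10 with limma-voom, 1 with satellite genes removed, 1 (Bag4) without M624 and M664, 23 without the 4 satellite-rich libraries, and 0 to 8 with 1 tumor left out. The difference of mean log2 ratios, Myc-knockin minus p53-driven, was 2.08 for Bax over Bcl2 (4.92 without the 4 libraries, 0.32 without M624 and M664, 1.33 to 2.67 with 1 tumor left out) and 1.80 for Bax over Bak1 (3.23 without the 4 libraries, 1.08 without M624 and M664, 1.43 to 2.15 with 1 tumor left out). The cause of these changes was not tested.

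Signs turned for Bad under limma-voom (-0.093), after background subtraction (-0.032), without M624 and M664 (-0.50) and with 1 tumor left out (-0.39 to 0.23), for Bcl2l11 with every gene that had at least 1 count (-0.00094), without the 4 libraries (-0.034) and with 1 tumor left out (-0.10 to 0.26), for Bmf without M624 and M664 (-0.18) and with 1 tumor left out (-0.0020 to 0.71), for Bcl2l13 under limma-voom (-0.038), without the 4 libraries (-0.059) and with 1 tumor left out (-0.20 to 0.38), for Bnip3l under limma-voom (-0.29), without M624 and M664 (-0.36) and with 1 tumor left out (-0.16 to 0.24), for Trp53 with 1 tumor left out (-0.072 to 0.81) and for Endog without M624 and M664 (-0.83). The share of calls that were higher in the Myc-knockin tumors was 43.0%, and it was 64.5% with upper-quartile scaling, 59.7% with at least 10 counts in every tumor, 55.8% with DESeq2 and 54.6% after background subtraction. The median log2 fold change of all tested genes was 0.14, and 0.027 with library size alone and -0.038 with limma-voom.

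No paired analysis was possible because the columns of the table carry no replicate numbers that tie them to the numbered samples. Depth limits the low genes most: 3 counts came to 2.39 CPM in M9 and 1.85 CPM in M351, so levels such as those of Bbc3 rest on fewer than 10 counts there.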
